A study of Mus musculus with 11 samples.

Results

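The complement genes described here are 9 of the 12787 genes measured by RNA sequencing in the gonadal white adipose tissue (WAT) of mice. They are C1qa, C1qb, C1qc, C2 and C4b of the classical pathway, C3, on which all pathways converge, Cfb and Cfp of the alternative pathway, and C3ar1, the receptor for the C3a peptide. They were taken by gene symbol with no threshold on a measured value, and all 9 were in the table. All 11 mice were male C57Bl6/J mice kept on a 60% high fat diet (HFD) for 20 weeks, and the labels give no other allele or agent shared by the groups. In the HFD group, 5 mice received this diet with vehicle, and in the HFD + IMC group, 6 mice received it with 0.06% w/w iodomethylcholine (IMC), a small molecule that inactivates CutC, the enzyme with which gut bacteria convert choline to trimethylamine. The comparison asks how the adipose tissue transcriptome differed when this bacterial enzyme was inhibited. The paper reports that IMC blunted diet-induced obesity and lowered fat mass in HFD-fed mice. Differences that go with adiposity and differences that go with IMC itself cannot be told apart in these groups. Each mouse gave 1 library, no batch is named for the libraries, and the age of these mice is not given in the labels. A 6th control sample was dropped by the authors on quality grounds and was not analysed here.

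Complement is a cascade of plasma proteins that tag and destroy microbes and cell debris. In the classical pathway the recognition protein C1q, built from the chains encoded by C1qa, C1qb and C1qc, activates the proteases C1r and C1s, and C1s cleaves C4 and C2, whose fragments form a C3 convertase. In the alternative pathway C3 itself binds factor B (Cfb), which is cut by factor D (adipsin, Cfd), and properdin (Cfp) stabilises the resulting convertase. C1q and the C3a receptor are known as products of tissue macrophages, whereas adipocytes and stromal cells of fat are known to make C3, C4, factor B and adipsin.

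Of the 9 genes, 5 were lower and 2 were higher in the HFD + IMC mice, and 2 did not pass the test (limma, Benjamini-Hochberg adjusted p threshold of 0.05 over all genes). Of all genes in the table, 40.9% passed, 21.0% lower and 20% higher, so a call in either direction was common in these libraries. The groups did not overlap for 5 of the 9 genes, against 23.1% of all genes. The median log2 fold change of the 9 genes was -0.43, against -0.026 for all genes, and the median of the absolute values was 0.49 against 0.17. Both pathways held genes of both directions. The 5 classical genes had 3 lower (C1qa, C1qb, C1qc), 1 higher (C4b) and 1 that did not pass (C2), and the alternative genes had 1 higher (Cfb) and 1 lower (Cfp). Reads assigned to the listed genes ran from 22320022 to 25155366 per mouse, and the least covered of the 9 genes, C2, had at least 1952 reads in every mouse.

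**Figure D1:**
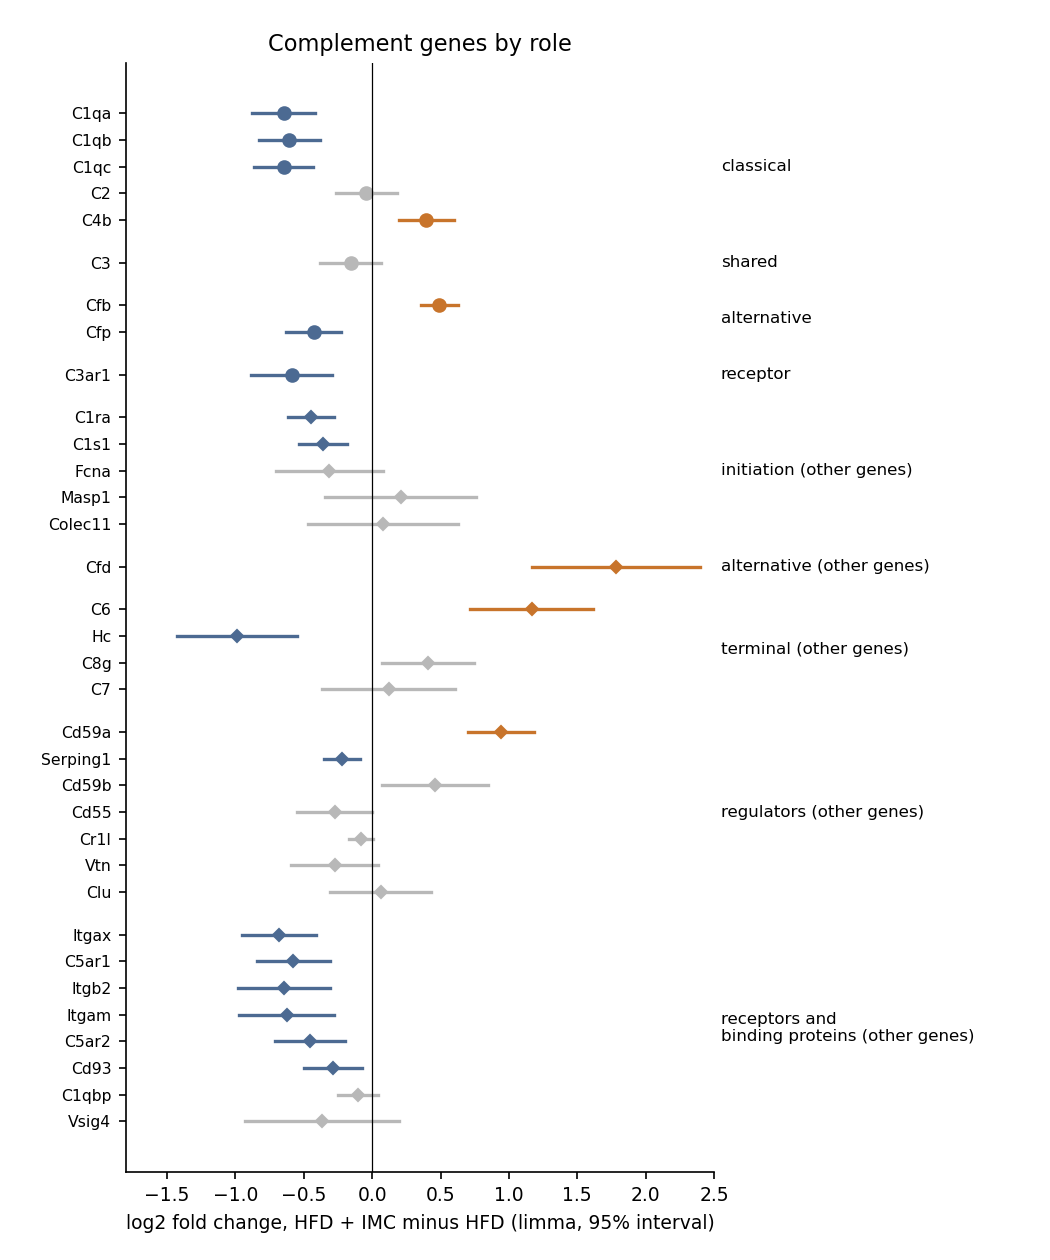
Log2 fold change of each complement gene (horizontal axis, HFD + IMC minus HFD) with its 95% interval from limma, 1 gene per row and grouped by role. Circles are the 9 genes, diamonds other complement genes in the table, blue lower, orange higher and grey not past the adjusted p threshold of 0.05. The C1q chains lie near -0.6, whereas C4b and Cfb lie at 0.40 and 0.49.

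The C1q chains, the recognition part of the classical pathway, all fell. C1qa, the A chain, had log2 CPM values (reads per 1000000 reads on the scaled library) of 9.82, 9.59, 9.83, 10.11 and 9.85 in the HFD mice, and its lowest, median and highest values in the HFD + IMC mice were 8.90, 9.22 and 9.47. All 6 treated mice lay below all 5 HFD mice. The difference was -0.65 (SE 0.11, 95% interval -0.88 to -0.42, limma adjusted p = 0.000469), 0.638 times the HFD level. C1qb, the B chain, measured 10.45, 10.14, 10.50, 10.63 and 10.39 in the HFD mice, and 9.62, 9.80 and 10.13 were the lowest, median and highest values with IMC. The C1qb groups were also apart, but by 0.013 only, between the lowest HFD mouse and the highest treated mouse, and the difference was -0.61 (SE 0.10, limma adjusted p = 0.000648). C1qc, the C chain, measured 10.001, 9.79, 10.10, 10.26 and 10.03 in the HFD mice and had a lowest, median and highest value of 9.10, 9.40 and 9.60 with IMC. Its groups were separated by 0.20, and it differed by -0.65 (SE 0.10, limma adjusted p = 0.000332). Summed over the chains, C1q mRNA took 2792 to 3911 CPM in the HFD mice (median 3329) and 1814 to 2603 CPM in the HFD + IMC mice (median 2163). Against the rest of the table, 905 of the 12787 genes (7.08%) had a log2 fold change at least as large in size as that of C1qa.

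The C1q chains assemble into 1 protein, and their mRNA levels kept nearly fixed proportions in every mouse. Per kilobase of transcript, the log2 ratio of C1qa to C1qb within a mouse averaged -0.54 ± 0.060 (SD, n = 11), that of C1qa to C1qc 0.015 ± 0.042, and that of C1qb to C1qc 0.55 ± 0.067. These ratios had similar means in both groups, at -0.52 and -0.56 for C1qa to C1qb and at 0.016 and 0.014 for C1qa to C1qc (HFD and HFD + IMC). After each group's mean was subtracted, the Pearson r over the 11 mice was 0.95 for C1qa with C1qb, 0.97 for C1qa with C1qc and 0.93 for C1qb with C1qc, as a description of mice that share library and depth in each pair of values. The genes are also neighbours on the minus strand of chromosome 4 in GRCm38, the Genome Reference Consortium name for mm10. C1qb spans 4:136880126-136886200, C1qc 4:136889801-136892936 and C1qa 4:136895916-136898844, with 3600 bases between C1qb and C1qc, 2979 between C1qc and C1qa, and no RefSeq gene between them. Each has 3 exons.

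Upstream sequence of C1qb and C1qc, neighbours whose mRNA fell together, is shown from RefSeq (GRCm38.p6, minus strand), with motif matches in capitals. Each window holds the 250 bases before the start used for that gene, written 5′ to 3′. The windows are chr4:136886201-136886450 for C1qb and chr4:136892915-136893164 for C1qc.
C1qb: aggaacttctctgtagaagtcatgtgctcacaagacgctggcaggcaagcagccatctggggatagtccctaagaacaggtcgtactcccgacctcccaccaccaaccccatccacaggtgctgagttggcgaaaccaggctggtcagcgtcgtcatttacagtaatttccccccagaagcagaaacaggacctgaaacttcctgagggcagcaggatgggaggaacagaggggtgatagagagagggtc
C1qc: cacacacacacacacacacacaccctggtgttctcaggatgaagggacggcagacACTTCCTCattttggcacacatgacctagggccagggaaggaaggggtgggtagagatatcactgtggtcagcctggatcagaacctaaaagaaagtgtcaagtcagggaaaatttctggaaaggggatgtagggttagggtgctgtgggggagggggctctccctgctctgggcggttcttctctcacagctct
The C1qc window holds 1 match to GAGGAAGT, a motif of the myeloid factor PU.1, read here from the opposite strand and with its first printed base at position -195 from the start. The C1qb window held no match to that motif or to TTGCNNAA (C/EBP), GAAANNGAA (interferon response element half-sites) or GGGANTTTC (kappa B), each searched on both strands. These motifs occur in 2.44%, 9.56%, 7.13% and 0.941% of all 32851 such windows in the RefSeq table, in that order, and a window can hold more than 1 of them. The C1qc window reaches a few bases into the gene bounds given above, so the start from which -195 is counted lies inside those bounds. The bases that follow the C1qb window matched no GENCODE transcript of C1qb, so the start used for that window is less certain.

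The classical convertase genes did not follow the C1q chains. C4b, whose product C4 is cut by C1s and binds covalently to its target, measured 9.70, 9.92, 9.68, 9.92 and 10.05 log2 CPM in the HFD mice, and 10.09, 10.20 and 10.51 as the lowest, median and highest values with IMC. Every treated mouse was above every HFD mouse, by 0.033 at the nearest. The difference was 0.40 (SE 0.095, 95% interval 0.19 to 0.60, limma adjusted p = 0.00504), a level 31.7% higher. C4b (17:34728139-34743902, 41 exons) has a near-identical neighbour, C4a, which was looked for and was not in the table. The authors' gene counts hold uniquely mapped reads, so reads that map to both genes are left out. The level of C4b may be understated and is uncertain to that extent. C2, the protease of the classical convertase, measured 6.65, 6.51, 6.83, 6.74 and 6.77 in the HFD mice and 6.30, 6.68 and 6.99 as the lowest, median and highest values with IMC. The groups overlapped, with all 5 HFD mice inside the range of the treated mice. The mean was 6.70 ± 0.13 (SD, n = 5) in HFD and 6.66 ± 0.24 (SD, n = 6) in HFD + IMC, and the difference of -0.042 had a 95% interval of -0.27 to 0.18 (limma adjusted p = 0.778), which leaves room for a change of either sign.

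C3, the central component whose cleavage gives C3a and C3b, was the most abundant of the 9 genes by read count. It took 38.6% to 46.2% of their summed CPM in each mouse. It measured 11.93, 11.87, 12.18, 12.002 and 11.81 log2 CPM in the HFD mice, with a lowest, median and highest value of 11.60, 11.81 and 11.97 in the HFD + IMC mice. The groups overlapped, although 3 of the 6 treated mice were below every HFD mouse. The difference was -0.16 (SE 0.10, 95% interval -0.38 to 0.067) and did not pass the test (limma adjusted p = 0.250). C3 lies at 17:57203967-57228136, has 41 exons and contains the microRNA gene Mir6978 within its bounds. Its upstream window (chr17:57228137-57228386, minus strand, RefSeq GRCm38.p6) is shown beside those of the C1q genes because C3 did not pass the test whereas they fell.
C3: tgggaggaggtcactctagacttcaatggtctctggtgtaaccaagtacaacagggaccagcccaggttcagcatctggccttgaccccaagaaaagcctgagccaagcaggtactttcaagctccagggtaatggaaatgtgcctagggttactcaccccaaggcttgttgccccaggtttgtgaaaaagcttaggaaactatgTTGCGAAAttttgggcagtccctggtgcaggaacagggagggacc
The capitals mark 1 match to the C/EBP motif, whose first base is at position -45 from the start of C3, and no other motif of those searched was found in this window. RefSeq windows were found for 5 of the 9 genes, and those of Cfp and C3ar1 held no match to the motifs searched.

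The alternative pathway genes moved in opposite directions. Cfb, the protease of the alternative convertase, had the smallest p of the 9 genes. It measured 8.83, 9.01, 9.04, 9.05 and 9.15 log2 CPM in the HFD mice and had a lowest, median and highest value of 9.38, 9.53 and 9.62 with IMC, so that the nearest mice of the groups were 0.23 apart. The difference was 0.49 (SE 0.064, 95% interval 0.35 to 0.63, limma adjusted p = 0.000108), a level 40.7% higher. Cfp, which encodes properdin, a product of leukocytes, measured 7.68, 7.40, 7.54, 7.67 and 7.64 in the HFD mice and 6.88, 7.17 and 7.49 as the lowest, median and highest values with IMC. The groups overlapped through 1 treated mouse, and the other 5 of 6 lay below every HFD mouse. The difference was -0.43 (SE 0.093, 95% interval -0.63 to -0.23, limma adjusted p = 0.00294), 0.744 times the HFD level. Cfd, encoding adipsin, the protease that activates factor B, rose from 6.71 ± 0.67 (SD, n = 5) to 8.498 ± 0.47 (SD, n = 6), a difference of 1.78 (SE 0.29, limma adjusted p = 0.000415). Cfb lies at 17:34856374-34862514, contains Mir6972, and starts 87 bases after the end of C2 (17:34862602-34882100) on the minus strand, with no gene between them, and Cfp lies at X:20925454-20931555.

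**Figure D2:**
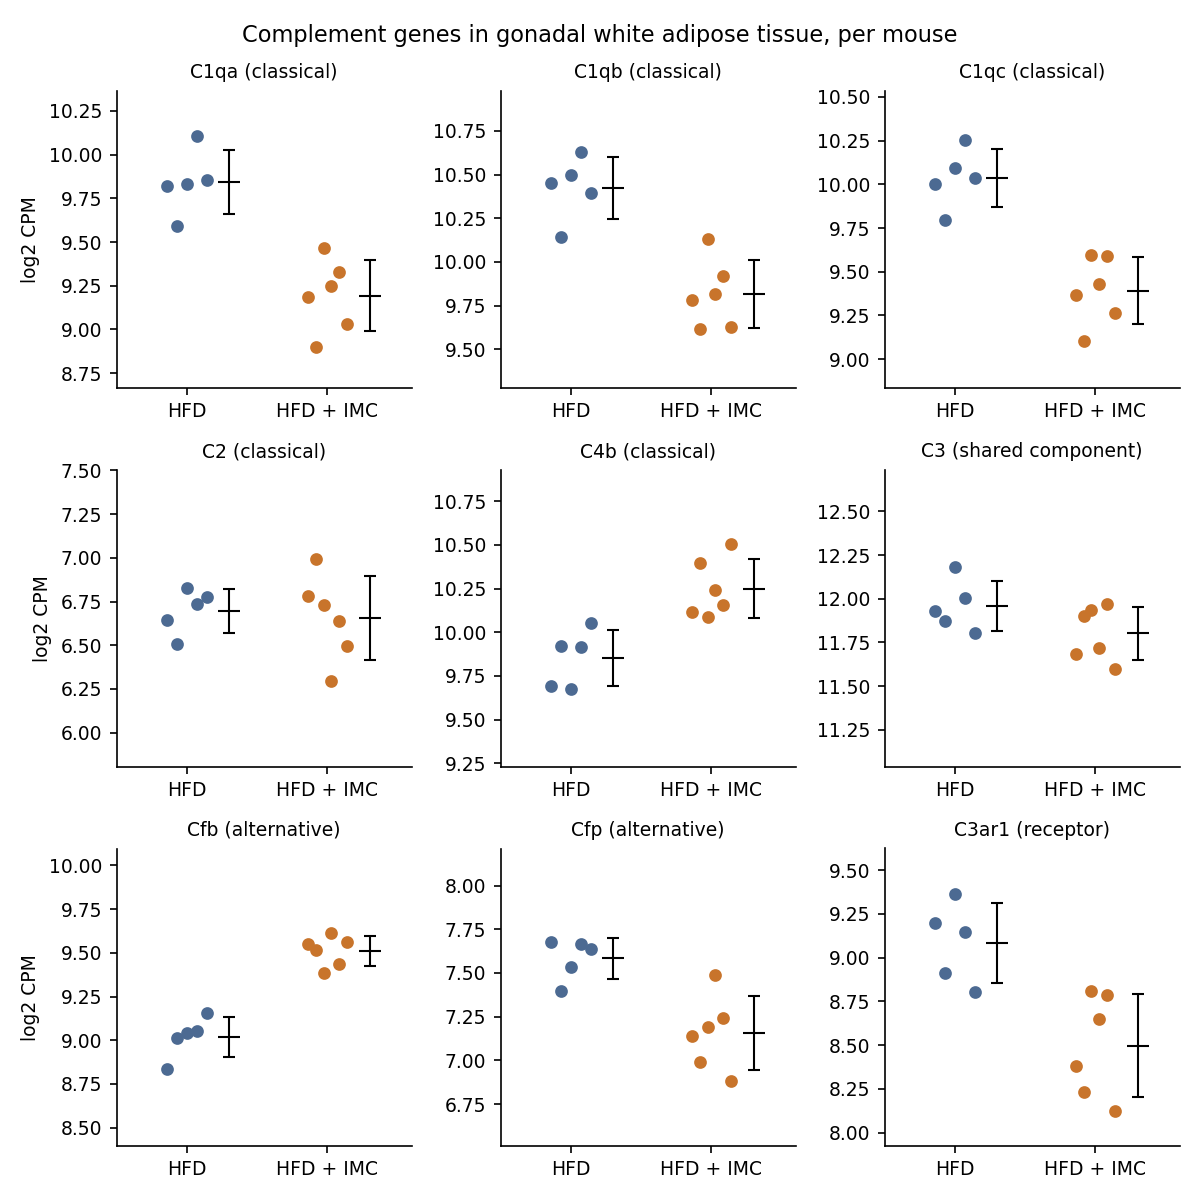
Log2 CPM of the 9 complement genes in each mouse (vertical axes, each spanning the same range of log2 units and none starting at 0), with the mean and SD beside the points, for 5 HFD (blue) and 6 HFD + IMC (orange) mice. The groups are apart for C1qa, C1qb, C1qc, C4b and Cfb, meet at 1 mouse for Cfp and C3ar1, and overlap widely for C2 and C3.

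Whether classical genes responded differently from their alternative pathway or shared counterparts was tested on the log2 ratio within each mouse, for 3 pairs of genes. The test was a two-sided exact permutation over all 462 splits of the mice, which cannot give a p below 0.00216. C2 and Cfb encode homologous proteases that stand in the same place of the classical and alternative convertases. The log2 ratio of C2 to Cfb was -2.19, -2.51, -2.22, -2.32 and -2.38 in the HFD mice and had a lowest, median and highest value of -3.32, -2.78 and -2.52 in the HFD + IMC mice. The groups did not overlap, and the ratio was lower in every treated mouse than in any HFD mouse. The difference was -0.53 (SE 0.13, exact permutation p = 0.00433, Benjamini-Hochberg adjusted p = 0.0130 over the 3 pairs). The genes compared here lie 87 bases apart on the same strand.

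C4b and C3 encode homologous thioester proteins, the first a subunit of the classical convertase and the second the shared component that the alternative convertase also carries. Their log2 ratio was -2.23, -1.95, -2.50, -2.08 and -1.75 in the HFD mice, and -1.85, -1.54 and -1.09 were the lowest, median and highest values with IMC. Most treated mice lay higher, with some overlap. The difference was 0.55 (SE 0.17, exact permutation p = 0.0130, adjusted p = 0.0195), in the direction opposite to that of C2 to Cfb. C1qa and Cfp, the recognition chain of one pathway and the stabiliser of the other, both fell. Their log2 ratio was 2.26 ± 0.12 (SD, n = 5) in HFD and 2.04 ± 0.18 (SD, n = 6) in HFD + IMC, and the groups overlapped. The difference was -0.22 (SE 0.090, exact permutation p = 0.0411, adjusted p = 0.0411). It stayed negative with any mouse left out, from -0.27 to -0.17. Leaving out any of 8 of the 11 mice gave exact permutation p-values of 0.0524 to 0.1, which missed the threshold with fewer mice. The ratio thus fell for C2 to Cfb, where Cfb rose and C2 did not pass the test. It rose for C4b to C3, where C4b rose and the shared component C3 did not pass.

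**Figure D3:**
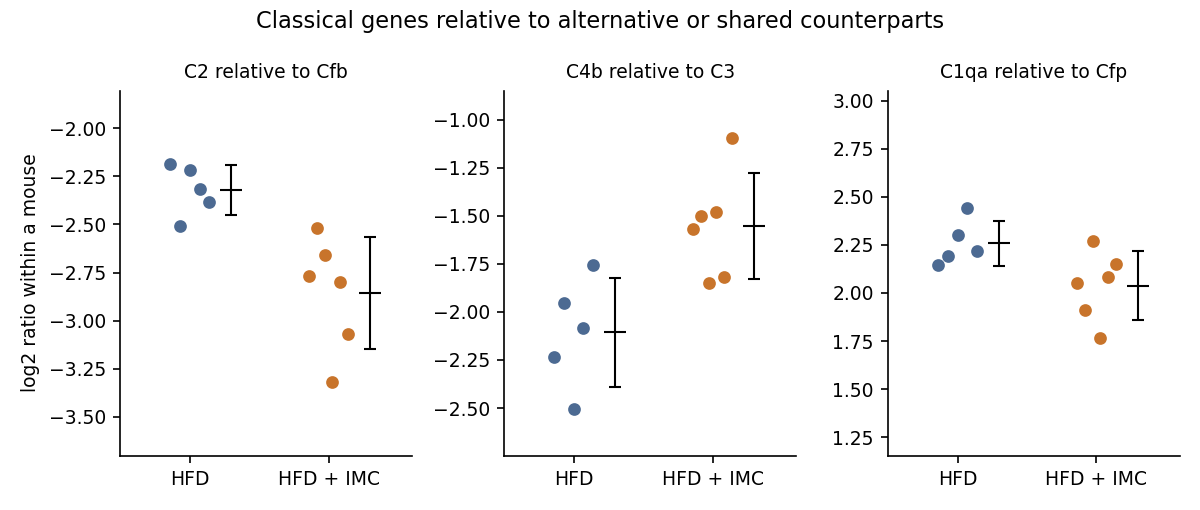
Log2 ratio of a classical gene to its alternative or shared counterpart in each mouse (vertical axes, log2 units), with mean and SD, for 5 HFD (blue) and 6 HFD + IMC (orange) mice. C2 relative to Cfb is lower in all treated mice, C4b relative to C3 is higher in most, and C1qa relative to Cfp overlaps.

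C3ar1, the receptor through which C3a acts on macrophages and other cells, measured 9.20, 8.91, 9.37, 9.14 and 8.80 log2 CPM in the HFD mice and had a lowest, median and highest value of 8.12, 8.51 and 8.81 with IMC. The groups overlapped narrowly, at 1 mouse of each group, and 5 of the 6 treated mice were below every HFD mouse. The difference was -0.59 (SE 0.14, 95% interval -0.89 to -0.29, limma adjusted p = 0.00455), 0.665 times the HFD level. C3ar1 (6:122847140-122856157, 2 exons) varied most among the 9 genes within groups, with an SD of 0.23 in HFD and 0.29 in HFD + IMC.

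The fall of C1q, properdin and the C3a receptor went with a fall of macrophage markers, and in whole tissue fewer cells of a type and less RNA per cell cannot be told apart. All 10 macrophage markers examined were in the table, 7 of them lower and 0 higher, and their summed level was 7081 to 9449 CPM in the HFD mice and 4165 to 6465 CPM in the HFD + IMC mice. The log2 fold changes of the markers ran from -0.79 (Trem2) to 0.27 (Cd163, among the 3 that did not pass). Trem2 and Lyz2 (-0.71) fell by more than C1qa, and the other markers by less or not at all. The mean log2 level of the markers differed by -0.42 between the groups. Levels relative to that mean in each mouse depend on which markers are averaged. On this scale C1qa differed by -0.23, from 1.37 to 1.66 in HFD and from 1.12 to 1.36 in HFD + IMC. C1qc differed by -0.23, from 1.62 to 1.81 and from 1.32 to 1.55, and neither gene overlapped between the groups. C1qb differed by -0.19, C3ar1 by -0.17 and Cfp by -0.0099 on this relative scale, each with overlap between the groups. Cfb and C4b, in contrast, stood 0.91 and 0.81 higher relative to the markers, without overlap. C2 and C3 stood 0.38 and 0.26 higher with overlap, and neither passed the test on its own level. The -0.42 of the marker mean is subtracted from every difference on this scale. The part of the macrophage markers in the changes of these genes was not tested.

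**Figure D4:**
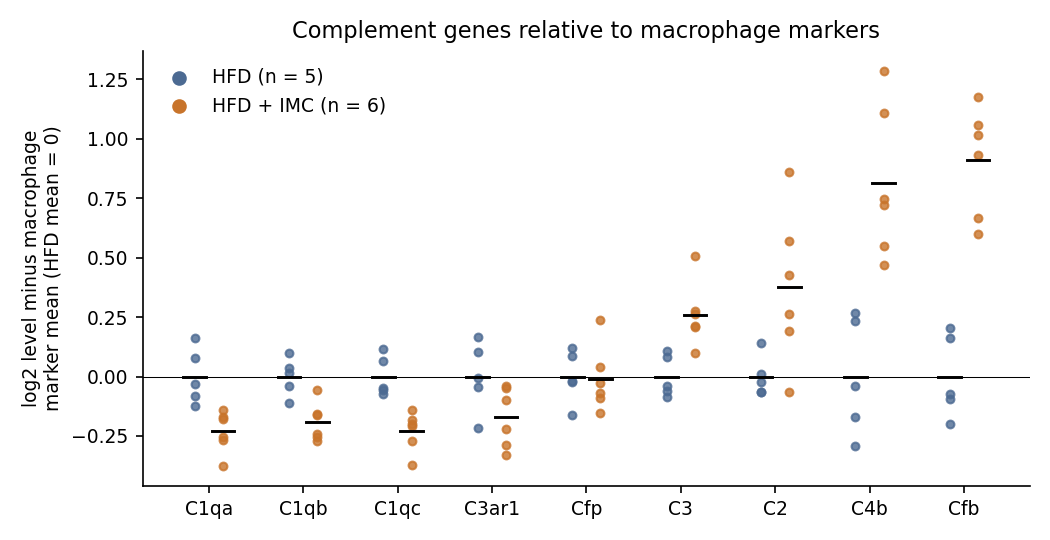
Log2 level of each complement gene minus the mean log2 level of 10 macrophage markers in the same mouse (vertical axis, shifted so that the HFD mean is 0), with group means as bars, for 5 HFD (blue) and 6 HFD + IMC (orange) mice. Cfp is level at -0.0099, the C1q chains and C3ar1 lie between -0.17 and -0.23, and C4b and Cfb lie at 0.81 and 0.91.

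Markers of other cells of the depot moved as well. All 8 adipocyte markers were in the table and higher, with a summed level of 9018 to 12951 CPM in the HFD mice and 17866 to 21875 CPM in the HFD + IMC mice, which went along with the rise of C4b and Cfb. Of 7 markers of progenitors and fibroblasts, cells that also make C3 and C4, 4 were lower and 0 higher (8646 to 11146 CPM against 6665 to 8831 CPM). All 4 mast cell markers were lower, at 295 to 659 CPM and 92.4 to 194 CPM. Of 7 mesothelial markers 5 were in the table and 1 was lower (225 to 310 CPM against 104 to 253 CPM), and of 4 endothelial markers 1 was higher (300.3 to 416.8 CPM against 369 to 498 CPM). Of 5 dendritic cell markers 4 were in the table, all at low levels, and 1 was lower (13.9 to 19.6 CPM against 13.4 to 16.6 CPM), and of 6 lymphocyte markers Cd2 alone was listed and did not pass (4.91 to 13.4 CPM against 3.07 to 6.21 CPM). None of 5 epididymis markers was listed, and the 2 of 5 skeletal muscle markers in the table were higher at 12.2 to 17.4 CPM and 29.8 to 55.7 CPM. The part of these cell types in the levels of the complement genes was not tested.

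Among 44 other genes of the cascade, its regulators and its receptors, 26 were in the table. Of these, 3 were higher, 11 were lower and 12 did not pass (limma, adjusted p threshold of 0.05), with a median log2 fold change of -0.27. Over all genes 40.9% passed, 20% higher and 21.0% lower. The groups did not overlap for 9 of the 26, against 23.1% of all genes. The proteases that C1q activates were lower along with it. C1ra differed by -0.45 (SE 0.077, limma adjusted p = 0.000660) and C1s1 by -0.36 (SE 0.080, limma adjusted p = 0.00339), both without overlap between the groups. The other 3 listed initiation genes, of the lectin pathway, did not pass. Among 8 listed receptors and binding proteins, 6 were lower and 0 higher. Itgax and Itgb2, subunits of the complement receptor CR4, differed by -0.68 (SE 0.13, limma adjusted p = 0.00105) and -0.64 (SE 0.16, limma adjusted p = 0.00558), and C5ar1, a receptor for C5a, by -0.58 (SE 0.12, limma adjusted p = 0.00280). These stood near the -0.59 of C3ar1.

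Regulators and terminal components went in both directions. Cd59a, which blocks the membrane attack complex on host cells, rose by 0.94 (SE 0.11, limma adjusted p = 6.5e-05), from 6.28 ± 0.28 (SD, n = 5) to 7.22 ± 0.14 (SD, n = 6). Of the 8 listed regulators 1 was higher and 2 were lower. C6, a component of the membrane attack complex, was higher by 1.17 (SE 0.21, limma adjusted p = 0.000832), and Hc, which encodes C5, was lower by 0.99 on the log2 scale (log2 fold change -0.99, SE 0.20, limma adjusted p = 0.00203) at a low level of 2.22 and 1.23 log2 CPM in a region shared with the gene models Gm39794 and Gm52552. The groups did not overlap for Cd59a, C6 or Hc.

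To compare levels between genes, log2 CPM was set per kilobase of the principal transcript, a scale on which read count no longer rises with length. In the HFD mice C1qb was highest at 10.30 ± 0.18 (SD, n = 5), followed by C1qa at 9.79 ± 0.18, C1qc at 9.77 ± 0.17 and C3 at 9.60 ± 0.14. The ranges of C1qa, C1qc and C3 overlapped, and these neighbours in the order did not differ beyond their spread. Cfb at 7.57 ± 0.12 and C4b at 7.43 ± 0.16 came next and also overlapped, as did C3ar1 at 6.98 ± 0.23 and Cfp at 6.87 ± 0.12. The place of C4b is uncertain because reads shared with C4a are left out. C2 was lowest at 5.30 ± 0.13. In the HFD + IMC mice C3 at 9.44 ± 0.15 (SD, n = 6) stood second to C1qb at 9.69 ± 0.19, above C1qa at 9.14 and C1qc at 9.12, with overlapping ranges. Cfb at 8.06 ± 0.086 and C4b at 7.82 ± 0.17 kept their place below them, Cfp at 6.45 and C3ar1 at 6.39 were level, and C2 was again lowest at 5.25 ± 0.24. With all exons of a gene counted as its length, C1qc moved to 9.09 in HFD and 8.44 in HFD + IMC, below C3 in both groups. Together the 9 genes took 0.896% to 1.06% of reads in the HFD mice and 0.766% to 0.888% in the HFD + IMC mice.

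**Figure D5:**
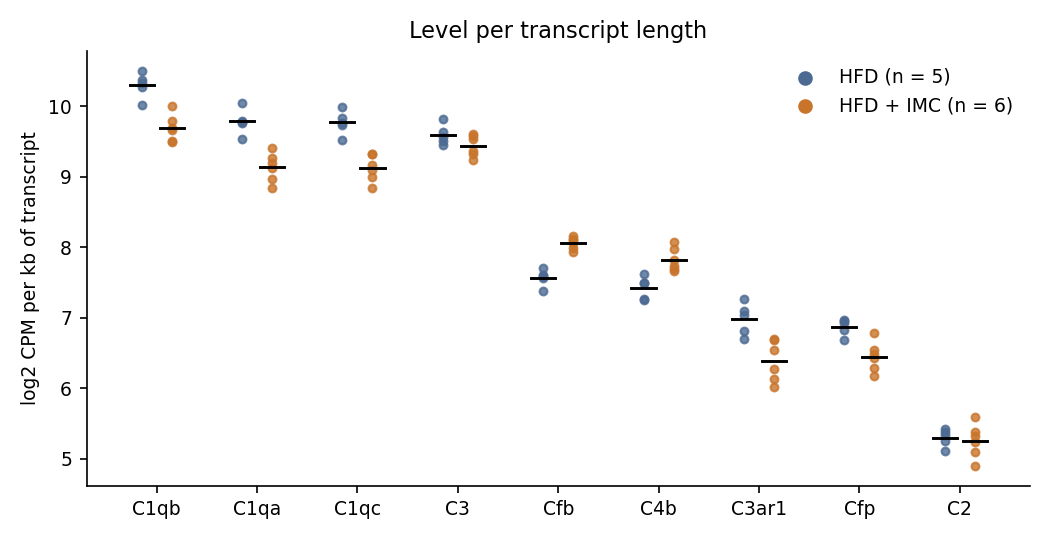
Log2 CPM per kilobase of principal transcript (vertical axis) for the 9 genes in each mouse, ordered by the HFD mean, with group means as bars, for 5 HFD (blue) and 6 HFD + IMC (orange) mice. C1qb is highest in both groups and C2 lowest, and C3 stands below C1qa and C1qc in HFD and above them in HFD + IMC.

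Within groups the 9 genes did not vary as 1 set. Over the 11 mice, after each group's mean was subtracted, C3ar1 had a Pearson r of 0.70 to 0.78 with the C1q chains, 0.73 with C3 and -0.84 with C4b, and C4b had an r of 0.60 with Cfb and -0.57 with C3. C2 and Cfb, the adjacent protease genes, had an r of -0.13. With the macrophage marker mean the r was 0.86 to 0.91 for the C1q chains, 0.94 for C3ar1 and 0.70 for Cfp, against 0.012 for C2, -0.34 for Cfb and -0.70 for C4b. The genes outside the 9 whose within-group pattern was most like C1qa were Dennd1a (r = 0.93), Fmnl1 (r = 0.93) and Coro7 (r = 0.91), and those most like C2 were Adam33 (r = 0.95), Ephb6 (r = 0.94) and Fam84a (r = 0.94). Most like C3 were Slc25a13 (r = 0.92), Add1 (r = 0.91) and Peak1 (r = 0.90), and most like Cfb were Hmgcs1 (r = 0.96), Cenpu (r = 0.91) and Crat (r = 0.91). Each r describes 11 mice whose values share library and depth, and these genes were picked as the highest of the table.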

How the data were processed

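RNA sequencing of gonadal WAT from 5 HFD and 6 HFD + IMC mice was analysed, with groups taken from the sample labels. The authors used Trim Galore for trimming and the gene counts of STAR, which hold uniquely mapped reads, on mm10 and UCSC annotations. The strand setting of that count is not given in the sources used here, although the library kit was directional. The authors removed transcripts under 1 read per 1000000 in all samples and scaled by the upper quartile with edgeR. The authors deposited log2 CPM for 12787 genes, more than their described filter leaves, and the sources used here do not explain the difference. The deposited table also holds the authors' log2 fold change, mean log2 CPM, likelihood-ratio score, p-value and FDR, which were not used.

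The deposited log2 CPM values were compared with limma 3.58.1 in R 4.3.3 (lmFit and eBayes with trend, group as the only factor, Benjamini-Hochberg adjustment over all 12787 genes, threshold 0.05). Ratios within a mouse were tested by exact permutation, two-sided. Whole reads were recovered from the log2 CPM steps for all values (tolerance 1e-06 on the log2 scale) and gave the depth. Median depth was 23128258 reads in HFD and 23977247 in HFD + IMC. Gene bounds, exons and transcript lengths came from GENCODE and RefSeq tables of GRCm38. All 9 genes are named, as are the 10 other complement genes with the smallest p (1 of which is not reported here), Cfd, and the 3 genes most like C1qa, C2, C3 and Cfb. The members and lists were chosen with earlier results of these data known. Alternatives were other library scalings, another added count, a filter on low values, voom weights on the recovered reads, a fit without the trend and leaving out each mouse. P-values set the difference between the groups against the spread between mice, with each mouse treated as independent. The mice were group-housed in several cages, and the labels do not tie mice to cages, so cages were not modelled.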

Additional observations from a re-analysis of the deposited data

Results flagged for a closer look

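Among 44 checks of a group for a mouse far from the others, over the 9 complement genes, the 10 other complement genes with the smallest p and the 3 ratios, in both groups, 1 stood out, and about 1 in 20 groups is expected to do so by chance. C1ra, a protease of the C1 complex, was at 6.28 log2 CPM in HFD + IMC replicate 4, against 6.58 to 6.64 in the other 5 treated mice, a gap of 0.839 of the range of the group where the limit for 6 mice is 0.625. The mouse lay on the same side of the HFD mice as its group.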

How the results depend on the processing

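The fold changes of the 9 genes were recomputed with other scalings, another added count, a filter, other variance models and each mouse left out, and 161 of 162 values kept their direction and their side of the threshold. The 3 ratios were recomputed with another added count and each mouse left out, and 28 of 36 values did so. In each of the 18 alternative fits 7 of the 9 genes passed, and the 14 other complement genes called became 13 to 16. C1qa ranged from -0.71 to -0.58, C4b from 0.35 to 0.45 and Cfb from 0.45 to 0.53. C2, which did not pass in any fit, ranged from -0.11 to 0.030 with a mouse left out and turned from -0.042 to 0.030 (limma adjusted p = 0.810) without HFD + IMC replicate 4, the mouse with its lowest level. Leaving out each mouse moved the C1qa to Cfp ratio between -0.27 and -0.17, and its exact permutation p missed the threshold without HFD replicates 2, 3, 4 or 5 or HFD + IMC replicates 1, 2, 4 or 5. The cause was not tested. The median gene differed by -0.026 as deposited and by -0.058 to -0.018 under other scalings. No paired analysis was possible because replicate numbers were given in accession order and tie no mice across groups. With at least 1952 reads in every mouse for each of the 9 genes, the width of the intervals depends mainly on the number of mice and the spread between them.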
